A study of Mus musculus with 14 samples.

Results

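Mammary tumours from Brg1+/- mice were compared by the level of the milk protein gene Csn2, which codes for beta-casein. Of the 12 tumours in the study, 10 were used. The casein-high tumours were T55, T160, T221, T372 and T2134, and the casein-low tumours were T135, T176, T284, T646 and T2023. They were chosen by the Csn2 value itself: a log2 ratio of tumour over reference RNA above 4 on the high side and below 1 on the low side. T172 and T920 lay between these thresholds and were left out of the comparison. Every tumour carried the heterozygous Brg1 allele, and every label also holds the word MIXED, which is not explained. The labels name no strain, age, parity, treatment or tumour histology for either side. No tissue with an intact Brg1 gene was analysed here, so nothing below compares genotypes.

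Each tumour's RNA was labelled with Cy5 and set on a 2-colour array against 1 common mouse reference RNA in Cy3. There were 14 arrays, with 2 each for T172 and T284, whose values were averaged within the tumour. The second array of each is labelled biorep, and the labels do not say what was repeated. Each array gave values for 22501 to 22566 of 22575 probes, and 16878 genes other than Csn2 were tested. A 2-colour ratio carries no signal level, so only the number of arrays and the spread between tumours describe the precision. The labels do not say how the tumours of a side relate to each other as animals, so p-values measure only the spread between these samples. The median difference over all genes was 0.00, and its median size was 0.21 on the log2 scale.

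Csn2 belongs to a cluster of casein genes that secretory alveolar cells of the mammary gland switch on in pregnancy and lactation. Prolactin acts through its receptor, the kinase JAK2 and the transcription factor STAT5 to induce these genes, and ELF5 is a transcription factor that drives the alveolar secretory fate. Brg1, encoded by Smarca4, is an ATPase of the SWI/SNF complexes, which remodel chromatin at promoters and enhancers. Casein genes can stay active in mammary tumours of the mouse, and their level is then read as a trace of alveolar differentiation. In bulk RNA, fewer cells of a type and less RNA per cell cannot be told apart, here and in every result that follows.

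The promoter stretches below show the kind of site through which STAT5 is known to act at milk genes. Each is the 150 bases before the start of the gene, 5′ to 3′ on the gene's strand, from NCBI RefSeq with GRCm38.p6 coordinates. Csn2 set the sides, Csn1s1 is the adjacent casein that served as a marker, and Glycam1 passed the test between the sides. Capitals mark a match to TTCNNNGAA, the core of the STAT5 motif, which reads the same on both strands.
Csn2, chr5:87699426-87699575, minus strand: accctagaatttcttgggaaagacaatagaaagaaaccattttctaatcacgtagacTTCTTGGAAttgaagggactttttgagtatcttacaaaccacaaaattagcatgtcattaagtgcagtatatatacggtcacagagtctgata
Csn1s1, chr5:87666058-87666207, plus strand: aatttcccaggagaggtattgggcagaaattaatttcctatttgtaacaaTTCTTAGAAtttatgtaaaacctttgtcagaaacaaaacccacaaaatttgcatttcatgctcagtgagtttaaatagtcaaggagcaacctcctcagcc
Glycam1, chr15:103565082-103565231, minus strand: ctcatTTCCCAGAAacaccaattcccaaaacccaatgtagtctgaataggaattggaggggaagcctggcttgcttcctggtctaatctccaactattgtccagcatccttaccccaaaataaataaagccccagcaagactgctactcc
The match starts 93 bases before the start of Csn2, 100 before that of Csn1s1 and 145 before that of Glycam1. In windows of 300 bases, from 250 before to 50 after the start, 6 of the 17 milk protein genes with a window (Csn2 included) held TTCNNNGAA, which is 35.3%. The other 3 were Csn1s2a, with its match at base 21 of the transcript, Pigr and Rnase1. Among all 32851 windows of that length 2726, or 8.3%, held TTCNNNGAA. Counted by gene, as for the milk genes, 1183 of 13432 measured genes with a window held it, or 8.81%. Among the genes with the largest differences described below, 3 of 9 with a window held a match on the higher side. On the lower side 0 of 10 did. The 3 were the milk genes Csn1s1, Csn1s2a and Glycam1, already counted above, so they are no separate result. Atp13a4, Bcl2l15, Hddc2 and Cul4b had no match in this window, nor did the milk genes Muc4, Lao1, Wap and Lalba. A match is a description of letters, and no binding was measured.

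Csn2 is given as a description only, because it defined the sides. Its log2 ratio was 6.90 in T55, 4.86 in T160, 5.70 in T221, 5.77 in T372 and 7.42 in T2134. On the low side it was 0.07 in T135, 0.30 in T176, 0.59 in T284, 0.16 in T646 and -0.57 in T2023. The tumour just inside the high threshold was T160, and the tumours just outside it were T172 at 2.42 and T920 at 2.37. T284 was the highest below the low threshold, and its arrays read -0.21 and 1.39, so its second array alone lay above 1. The arrays of T172 read 1.05 and 3.80 and both stayed between the thresholds. Across all genes the 2 arrays of a tumour differed by a median of 0.31 in T172 and 0.34 in T284. Csn2 was thus among the genes on which the 2 arrays of these tumours differed more than most.

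Other milk protein genes separated the sides, and 3 of 22 measured members of the milk protein list passed the test. Csn1s2a, Glycam1 and Muc4 rose on the casein-high side, and across all genes only these and Dhrs3, which fell, passed limma's test at an adjusted p under 0.05 (4 of 16878 genes, 0.0237%). The list's median difference was 1.19, beside 0.00 for all genes, and 21 of its 22 members had a higher mean on the high side. Of its members 7, namely Csn1s1, Csn1s2a, Wap, Glycam1, Muc4, Btn1a1 and Lao1, had no overlap between the sides, where 1.85% of all genes (313) were higher without overlap and 1.16% (195) lower. Without T176 these shares were 2.7% and 1.83%, and again 7 milk protein genes were higher without overlap. Btn1a1 had the sides apart only barely, with T372 at 0.76 and T135 at 0.75. Caseins are known to be induced together, so sides chosen by Csn2 are not independent of the other milk genes, and their counts are a description of how many followed it.

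**Figure D1:**
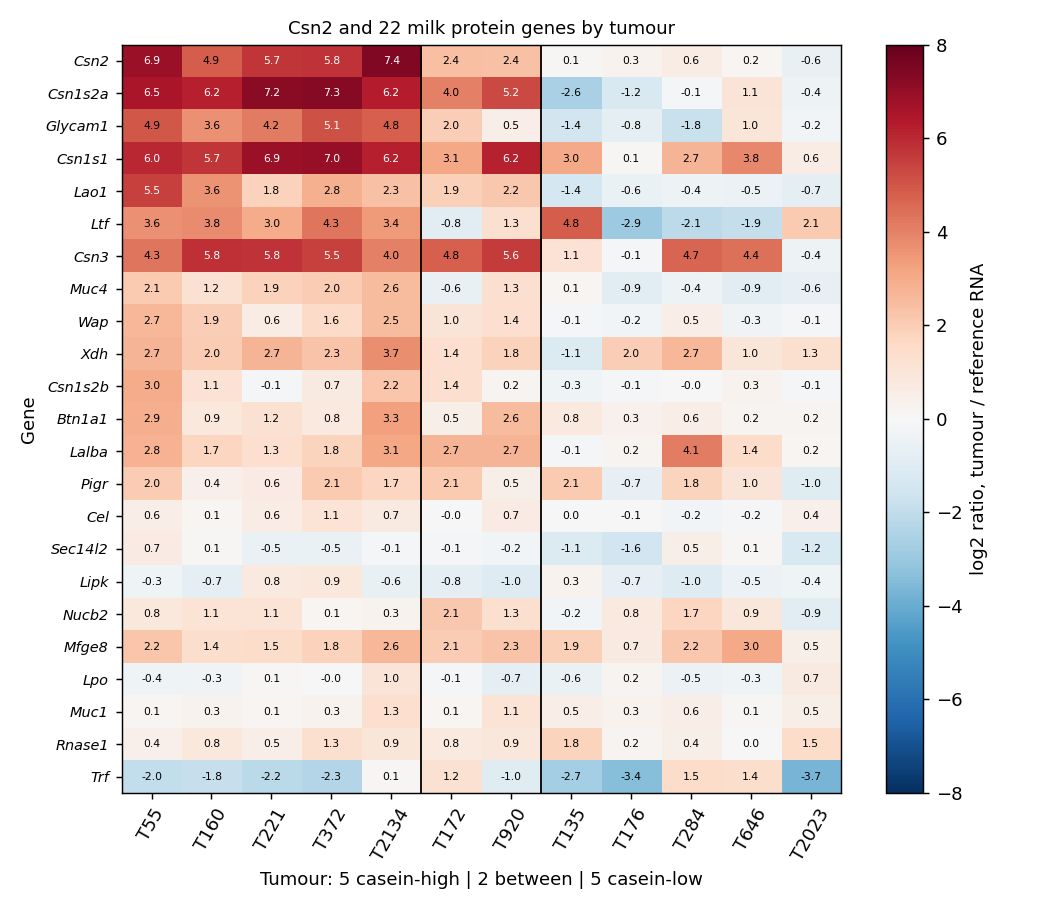
Log2 ratio of tumour over reference RNA for Csn2, which chose the sides, and 22 milk protein genes (rows, ordered by the difference) in 12 tumours (columns: 5 casein-high, 2 between the thresholds, 5 casein-low; the colour scale runs from -8 to 8). Csn1s2a and Glycam1 are high in all 5 casein-high tumours, whereas Csn3, Lalba and Ltf are high in some casein-low tumours too.

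Csn1s2a, which codes for an alpha-S2 casein, had the largest difference of the genes that passed. It was 6.53 in T55, 6.23 in T160, 7.24 in T221, 7.30 in T372 and 6.25 in T2134, against -2.58 in T135, -1.22 in T176, -0.15 in T284, 1.06 in T646 and -0.39 in T2023. All casein-high tumours lay within a narrow band far above every casein-low tumour, and the low side was the more scattered. The difference was 7.37 ± 0.57 (SE, 5 tumours a side; limma, Benjamini-Hochberg adjusted p = 0.00156). T284's arrays gave -1.86 and 1.57, a gap that is wide for 2 arrays of a tumour and small beside the difference between the sides. T172 at 4.01 and T920 at 5.25 lay in the gap between the sides.

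Glycam1 codes for a mucin-like glycoprotein that is secreted in milk. It was 4.94 in T55, 3.64 in T160, 4.18 in T221, 5.08 in T372 and 4.75 in T2134. The casein-low values were -1.44 in T135, -0.78 in T176, -1.78 in T284, 0.97 in T646 and -0.21 in T2023. The lowest casein-high tumour thus exceeded the highest casein-low one, T646, and the difference was 5.16 ± 0.49 (SE, 5 tumours a side; limma adjusted p = 0.00596). T172 at 1.99 lay in the gap, and T920 at 0.52 lay within the low range. Csn1s2a and Glycam1 passed in all 18 alternative settings that compared the sides, each tumour left out in turn included, with adjusted p between 0.000451 and 0.012 for Csn1s2a and between 0.000723 and 0.0354 for Glycam1.

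Muc4 codes for a membrane mucin that is present in milk and in secretory epithelia. Its mean over 2 probes was 2.11, 1.20, 1.87, 2.0 and 2.56 in T55, T160, T221, T372 and T2134, and 0.13, -0.88, -0.39, -0.91 and -0.64 in T135, T176, T284, T646 and T2023. The sides did not overlap, and the difference was 2.49 ± 0.27 (SE, 5 tumours a side; limma adjusted p = 0.0143). The probes disagreed: 1 differed by 4.76 with the sides apart, and the other by 0.21 with the sides overlapping. The call was lost without T55 (adjusted p = 0.063), T372 (0.0811), T284 (0.0545) or T646 (0.0509), with the difference between 2.39 and 2.52 in these fits.

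Csn1s1, the alpha-S1 casein gene next to Csn2, did not pass across all genes. Its values were 6.05, 5.69, 6.88, 6.97 and 6.19 in T55, T160, T221, T372 and T2134, and 3.01, 0.09, 2.72, 3.83 and 0.59 in T135, T176, T284, T646 and T2023. The sides were apart, but the low side spread from 0.09 to 3.83, and T135, T284 and T646 held Csn1s1 at 2.72 or more while their Csn2 was near the reference. The difference was 4.31 ± 0.68 (SE, 5 tumours a side; limma adjusted p = 0.0643). T920, with Csn2 at 2.37, had Csn1s1 at 6.18 and so reached the high range. Lao1, an L-amino acid oxidase found in mouse milk, ran from 1.83 to 5.47 on the high side and from -1.38 to -0.41 on the low side, a difference of 3.92 ± 0.58 (limma adjusted p = 0.0643). Wap, the whey acidic protein gene, ran from 0.61 to 2.68 against -0.26 to 0.52, a difference of 1.92 ± 0.36 (limma adjusted p = 0.113). The 2 probes of Wap disagreed, at 3.94 with the sides apart and at -0.10 with overlap.

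The casein-low tumours were not uniformly without milk genes. T284 held Csn3, the kappa-casein gene, at 4.67, and Lalba, which codes for the lactose synthase subunit alpha-lactalbumin, at 4.07. Its Lalba lay above all casein-high tumours, which ran from 1.34 to 3.08, and Lalba in T646, at 1.45, fell within that range. T646 held Csn3 at 4.38, whereas T176 and T2023 had it at -0.14 and -0.42 and T135 at 1.13. In the casein-high tumours Csn3 ran from 4.02 to 5.83, so both T284 and T646 fell in their range. The difference was 3.16 ± 1.02 for Csn3 (limma adjusted p = 0.293) and 0.99 ± 0.74 for Lalba (adjusted p = 0.668), neither of which passed.

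Ltf, the lactoferrin gene, showed a different division of the low side. It was 4.84 in T135, the highest value of the 12 tumours, and 2.07 in T2023, but -2.90 in T176, -2.10 in T284 and -1.90 in T646. The casein-high tumours ran from 2.98 to 4.30, and the difference of 3.62 ± 1.31 did not pass (limma adjusted p = 0.349). Xdh, the xanthine oxidoreductase of milk fat globules, was 2.66 in T284 and -1.08 in T135 against 2.0 to 3.74 on the high side. Trf, the transferrin gene, ran the other way by mean, with 1.46 in T284 and 1.40 in T646 above every casein-high tumour, and a difference of -0.24 ± 1.09. A low Csn2 therefore occurred together with high Csn3 and Lalba in T284, and with Csn3 and Lalba in the casein-high range in T646. In T135 it occurred with high Ltf, and in T176 with low values of all 3. In T2023 Ltf lay below the casein-high range, and Csn3 and Lalba were -0.42 and 0.16.

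**Figure D2:**
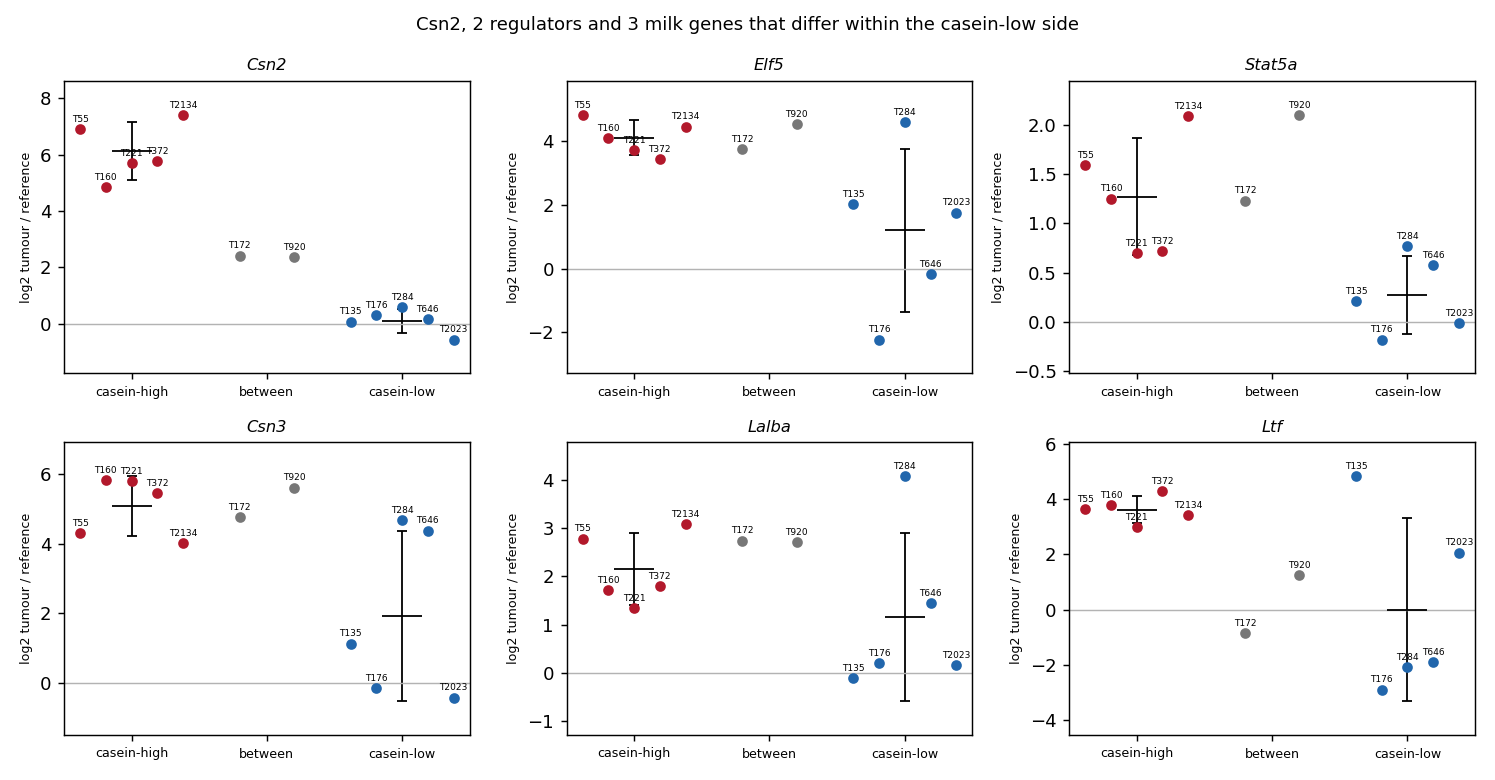
Log2 ratio of tumour over reference RNA (y axis, a scale of its own in each panel) for Csn2, the regulators Elf5 and Stat5a, and the milk genes Csn3, Lalba and Ltf, with 1 labelled point per tumour and, for each side of 5 tumours, a black bar at the mean with 1 SD. T284 has Elf5 at 4.60, Csn3 at 4.67 and Lalba at 4.07, all within or above the casein-high range, and Ltf at -2.10 below it.

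RNA levels of the measured regulators of the milk genes overlapped between the sides, as did those of most genes. Elf5 was 4.83 in T55, 4.09 in T160, 3.72 in T221, 3.45 in T372 and 4.46 in T2134, against 2.03 in T135, -2.23 in T176, 4.60 in T284, -0.16 in T646 and 1.76 in T2023. Only T284 among the casein-low tumours reached the casein-high range, and the other 4 lay below it. The difference was 2.91 ± 1.03 (SE, 5 tumours a side; limma adjusted p = 0.336) and 2.05 without T176 (adjusted p = 0.375). T172 at 3.75 and T920 at 4.54 held Elf5 in the casein-high range with Csn2 between the thresholds. Of the markers of the casein-high side other than Csn2, Csn1s1 thus had the sides apart and Elf5 did not.

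Of 23 measured genes of the prolactin and STAT5 pathway, 0 passed the test (0.0237% of all genes). Free of overlap were 0, where 1.85% of all genes were higher and 1.16% lower without overlap. For 23 genes a count of 0 is near these shares, so it is no result about the pathway. At an unadjusted p under 0.05 there were 4 (2 in each direction), and the median difference was -0.04. Over all 16878 genes 10.9% had an unadjusted p under 0.05, with 6.27% higher and 4.6% lower. The counts of list members below, at that p or with the sides apart, stand against these shares of all genes. Stat5a was 1.59, 1.25, 0.70, 0.72 and 2.09 in T55, T160, T221, T372 and T2134, and 0.21, -0.18, 0.77, 0.58 and -0.01 in T135, T176, T284, T646 and T2023. T284 alone reached past the lowest casein-high tumours, and the difference was 1.0 ± 0.29 (limma adjusted p = 0.256). Jak2 had the opposite sign, at -0.78 ± 0.23 (limma adjusted p = 0.255). Cish, a feedback inhibitor that STAT5 induces, differed by 0.98 ± 0.40 (0.65 without T176), and Ccnd1, the cyclin D1 gene, by -1.50 ± 0.47 (limma adjusted p = 0.411 and 0.289). Ccnd1 was between 1.71 and 2.20 in 4 casein-low tumours and at 0.23 in T284. The difference in Stat5b was 0.35 ± 0.20, and in Cebpb, which codes for a factor needed for alveolar development, 0.27 ± 0.47. The prolactin receptor gene was not among the 23 measured genes. Only RNA was measured, so the activity of JAK2 and STAT5 is not known here.

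Dhrs3, a short-chain dehydrogenase that reduces retinal, was the gene that fell on the casein-high side. It was -0.69, -0.12, -0.17, -0.32 and -0.72 in T55, T160, T221, T372 and T2134, and 0.90, 0.95, 1.64, 1.09 and 0.90 in T135, T176, T284, T646 and T2023. The sides were apart, with T284 above the other casein-low tumours, and the difference was -1.50 ± 0.19 (SE, 5 tumours a side; limma adjusted p = 0.048). Dhrs3 is close to the threshold: it passed in 8 of these 18 settings, and its adjusted p was 0.0682 without T176 and 0.159 without T372, the highest. The difference itself stayed between -1.57 and -1.37. T172 at 0.41 lay in the gap and T920 at 0.91 within the casein-low range.

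Genes that did not pass but had the smallest p among those with the sides apart and a difference of at least 1 gave adjusted p from 0.0643 upward. On the higher side these were, with Csn1s1 and Lao1 above, Atp13a4, Bcl2l15, Fbxl5, Hddc2, Cul4b, Sftpd and Pggt1b, and all had adjusted p of at most 0.0696. Sftpd, which codes for the collectin surfactant protein D of innate defence, had the largest difference of these. It was 2.21, -0.17, -1.44, 0.58 and 2.19 in T55, T160, T221, T372 and T2134, and -2.70, -4.96, -5.26, -3.14 and -4.32 in T135, T176, T284, T646 and T2023. Every casein-low tumour lay far below the reference, and the casein-high tumours lay on either side of it, a difference of 4.75 ± 0.76 (limma adjusted p = 0.0643). T172 at -2.92 and T920 at -3.88 had Sftpd in the casein-low range.

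Bcl2l15, which codes for a BCL2-like protein, ran from 2.54 to 4.23 on the casein-high side. On the low side it was 1.59 in T135 and between -0.61 and -0.19 in the other 4, a difference of 3.20 ± 0.46 (limma adjusted p = 0.0643, and 0.00718 without T135). Atp13a4, a P5-type ATPase, ran from 1.17 to 2.12 against -1.52 to 0.28, a difference of 2.37 ± 0.32. Fbxl5, an iron-sensing ubiquitin ligase subunit that limits the iron regulatory protein IRP2, ran from 0.03 to 1.04 against -1.29 to -0.66, a difference of 1.43 ± 0.21. The smaller differences were 1.30 in Hddc2, 1.11 in the ubiquitin ligase scaffold gene Cul4b and 1.07 in Pggt1b, which codes for a subunit of a protein prenyltransferase.

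On the lower side the genes so ranked were Dtx3, H2al2a, Gnai2, H2al1m, Olfr1143, Rhoc, Emb, Cplx2, Reck, Npr2 and Arl3, with differences from -2.60 to -1.07 and adjusted p from 0.0643 to 0.153. Emb, which codes for embigin, a partner of monocarboxylate transporters, was -1.38, -1.95, -0.41, 0.34 and -0.36 in T55, T160, T221, T372 and T2134, and 1.83, 1.26, 0.90, 3.09 and 2.14 in T135, T176, T284, T646 and T2023. The sides were apart by a narrow gap between T372 and T284, and the difference was -2.60 ± 0.49 (limma adjusted p = 0.113). Reck, a membrane inhibitor of matrix metalloproteinases, ran from -2.52 to -1.43 on the casein-high side and from -0.70 to 1.07 on the low side, with T135 the highest. Gnai2, an inhibitory G-protein subunit, differed by -1.29 ± 0.22 and Npr2, a natriuretic peptide receptor, by -1.07 ± 0.22 (limma adjusted p = 0.0754 and 0.153). For Npr2 and Cplx2 the 2 probes of the gene differed, by -0.43 and -1.72 for Npr2 and by -0.67 and -2.34 for Cplx2.

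H2al2a and H2al1m code for histone variants of the testis, and Olfr1143 for an olfactory receptor. These 3 genes belong to families of related genes. Whether a probe named for 1 member also reads others was not checked. Their casein-high values were close to the reference and uniform, from -0.45 to 0.63, and their casein-low values ran from 0.53 to 2.68. Olfr1143 passed the test without T176 (difference -1.81, limma adjusted p = 0.00613) and not with it (-1.55, adjusted p = 0.0919). Without T176 the count of genes that passed was again 4, of which 3 were shared with the 10-tumour comparison, Dhrs3 being replaced by Olfr1143.

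**Figure D3:**
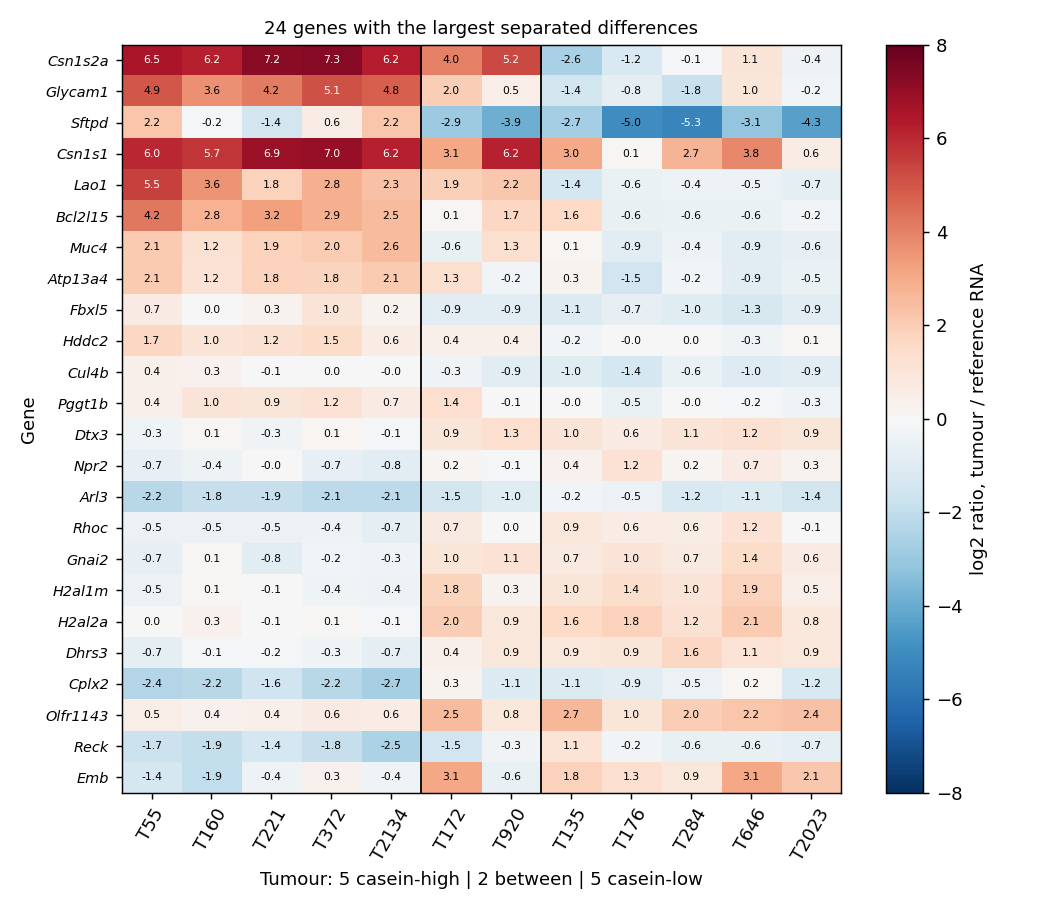
Log2 ratio of tumour over reference RNA (colour scale from -8 to 8) for the 24 genes named by rule, 12 higher and 12 lower on the casein-high side (rows, ordered by the difference), in 12 tumours (columns). All 24 have the sides apart because the rule required it; only Csn1s2a, Glycam1, Muc4 and Dhrs3 passed limma's test, and T172 and T920 lie with either side depending on the gene.

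The tumours T172 and T920 were not used in the comparison and show how genes that separated the sides ran at intermediate Csn2. Of the 313 genes higher without overlap, T172 reached the casein-high range at 88 and the casein-low range at 188, and lay in the gap at 37. T920 reached the high range at 94, the low range at 180 and the gap at 38. Among the 81 of these with a difference of at least 1, T172 reached the low range at 52 and T920 at 38. Of the 195 genes lower without overlap, T172 was in the casein-low range at 119 and T920 at 137. In both tumours the casein-low range was the more frequent. Csn1s2a lay in the gap in both. Csn3 and Elf5, whose sides overlapped and which are not among these genes, lay within the casein-high range in both.

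The sides were not 2 homogeneous classes of tumour. Correlations of tumours over 16619 genes, each gene centred on its mean over the tumours, ran from -0.253 (T160 with T221) to 0.437 (T55 with T160) within the casein-high side, with a median of 0.159. Within the casein-low side they ran from -0.463 (T284 with T2023) to 0.379 (T135 with T2023), with a median of -0.1. Between the sides they ran from -0.493 (T372 with T284) to 0.313 (T221 with T2023), with a median of -0.176. The points share arrays and the reference, so these are descriptions without a p-value. Centring each gene on its mean over the tumours by itself shifts the correlations towards negative values. A slightly negative median therefore does not show that tumours were unlike each other. The median within the casein-low side lay closer to that between the sides than to that within the casein-high side.

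Genes of milk fat synthesis gave no call by limma. Of 35 measured, 0 passed, and 5 were higher and 1 lower at an unadjusted p under 0.05 (6.27% and 4.6% of all genes). By mean 23 were higher and 12 lower, and the median difference was 0.27, or 0.20 without T176. Olah, the thioesterase that ends fatty acid chains at medium length, was the member with the sides apart (1.85% of all genes were higher without overlap). It ran from 0.29 to 3.53 against -0.41 to 0.06, a difference of 1.73 ± 0.59 (limma adjusted p = 0.322). Its high values were those of T55 and T2134, at 3.53 and 2.74, and T172, between the thresholds, had 2.54. Fasn, the fatty acid synthase gene, differed by 0.90 ± 0.32, Acaca, acetyl-CoA carboxylase, by 0.57 ± 0.20, Thrsp, a regulator of lipogenesis, by 2.34 ± 0.64, and Srebf1 by 0.69 ± 0.56 (limma adjusted p from 0.219 to 0.687). Cd36, a fatty acid carrier of secretory epithelium that adipocytes and endothelium also express, differed by 2.35 ± 0.57 (limma adjusted p = 0.191). The other genes of the lactating cell had smaller median differences. The 31 measured genes of transport and lactose synthesis had a median of 0.07 (0.04 without T176) and 35 of the secretory pathway a median of -0.09. In these lists 0 passed, and 4 and 2 had an unadjusted p under 0.05, where 10.9% of all genes did.

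Adipocytes, which share Cd36, are another cell type the tumours could hold. Of 13 measured adipocyte markers 9 were higher and 4 lower by mean. At an unadjusted p under 0.05, 4 were higher (6.27% of all genes), and 0 passed. The median difference was 0.28, or 0.76 without T176. Cidec and Retn were higher with the sides apart (1.85% of all genes), Retn only barely, as T2134 and T2023 both rounded to -2.21. The mean over the list ran from -2.83 to -1.20 on the casein-high side and from -3.09 to -2.37 on the low side. T221 held the highest mean, with Adipoq at -1.38 against -4.62 to -3.80 in the other casein-high tumours, whereas Cd36 was highest in T55, at -0.67. Their part in the differences of lipid genes was not tested.

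The median difference in epithelial markers depended on T176. The 24 measured genes of simple epithelium and junctions had a median difference of 0.85 with T176 and 0.09 without it. In T176 Krt8, Krt18 and Cdh1, the defining keratins and cadherin of luminal epithelium, were -3.53, -4.25 and -4.58, whereas in the other 9 tumours they ran from -0.45 to 2.27, from 1.14 to 2.96 and from -0.03 to 2.06. The alveolar and luminal progenitor list went in the same way from 0.71 to 0.18, and the mesenchymal list changed from -0.85 to -0.32. Neither list had a member that passed, and 2 of 22 and 1 of 18 had an unadjusted p under 0.05, where 10.9% of all genes did. Without T176 the milk protein median was 1.07.

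Within the epithelial list 3 of 24 genes were higher at an unadjusted p under 0.05 (6.27% of all genes). Krt19 differed by 3.13 ± 0.82 (limma adjusted p = 0.209), and by 2.74 without T176. It was -4.12, -3.66 and -3.00 in T176, T284 and T2023. Esrp2, a splicing regulator of epithelial cells, had the sides apart (1.85% of all genes were higher without overlap). It ran from 2.04 to 2.33 against -2.35 to 1.96, a difference of 1.58 ± 0.68 that was 0.85 without T176. Krt8, Krt18 and Cdh1 overlapped between the sides with differences of 0.87, 1.20 and 1.03, which turned to -0.15, -0.12 and -0.12 without T176. Hormone-sensing luminal genes, 11 measured, had a median of 0.28, and 0 passed, with 1 at an unadjusted p under 0.05 (10.9% of all genes). Esr1 differed by -0.27 ± 0.23 and Pgr by 0.17 ± 0.22. Of 12 measured genes of the smooth muscle and myoepithelial list 0 passed, 4 were higher and 8 lower by mean, 4 were lower at an unadjusted p under 0.05 (4.6% of all genes), and the median was -0.25, or -0.47 without T176. Acta2 and Actg2 were the 2 members with the sides apart, where 1.16% of all genes were lower without overlap. Acta2 ran from -3.39 to -2.98 on the casein-high side and from -2.87 to -1.97 on the low side. Actg2 ran from -2.41 to -1.81 against -1.72 to -0.98. The differences were -0.74 ± 0.20 for Acta2 and -0.71 ± 0.18 for Actg2 (limma adjusted p = 0.217 and 0.198). Fgfr1, of the mesenchymal list, was lower without overlap (1.16% of all genes), by -0.85 ± 0.23 (limma adjusted p = 0.217).

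Squamous genes divided both sides. The mean over 26 measured members ran from -1.04 to 2.51 on the casein-high side and from -2.67 to 2.11 on the low side, with the highest values in T221 and T372 on the high side and in T2023 and T135 on the low side. The list's median difference was 1.13, but 0 genes passed and 0 had an unadjusted p under 0.05 and the spread within each side was wider than the difference. Basal epithelial genes, 19 measured, had a median of 0.13, which turned to -0.14 without T176, and 0 at an unadjusted p under 0.05.

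**Figure D4:**
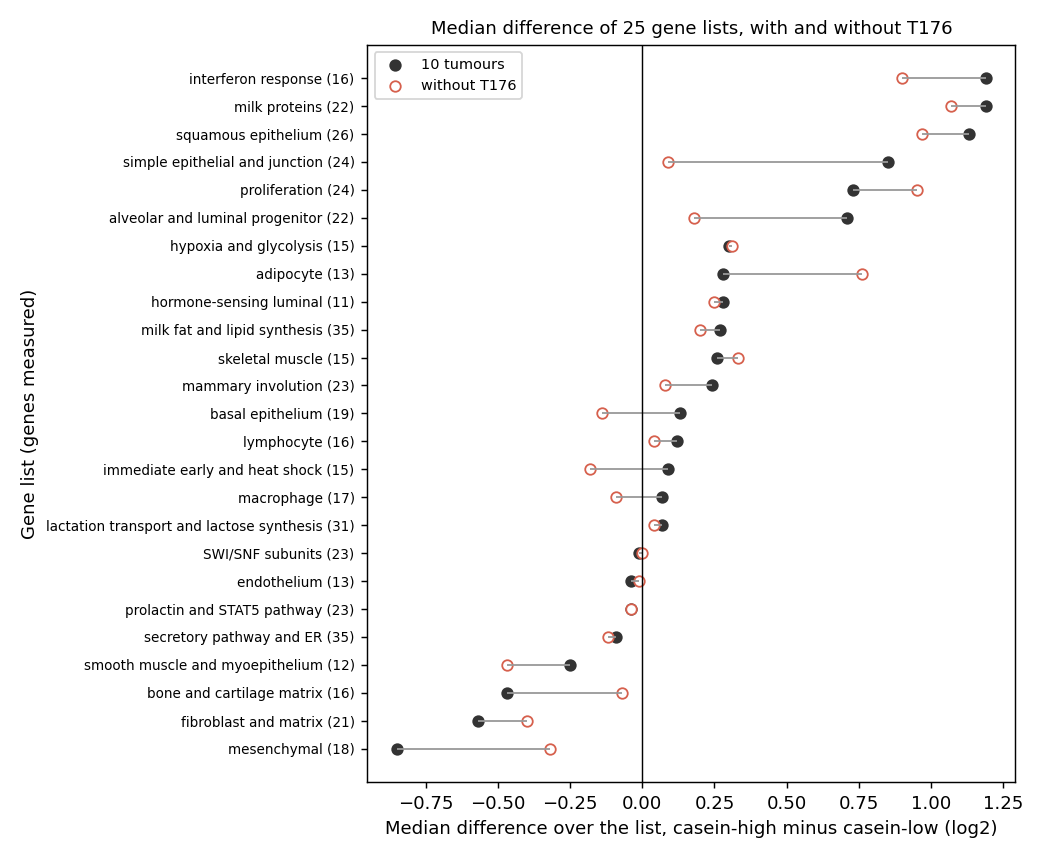
Median difference between casein-high and casein-low tumours (x axis, log2 scale; 0 is also the median of all genes) for 25 gene lists (y axis, with the number of genes measured), with all 10 tumours (filled points) and without T176 (open points). The milk protein median moves from 1.19 to 1.07 when T176 is left out, and the simple epithelial median from 0.85 to 0.09.

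Interferon-response genes were the list with as high a median as the milk proteins, at 1.19 with T176 and 0.90 without it. Of 16 measured, 8 were higher at an unadjusted p under 0.05 (6.27% of all genes) and 0 passed. With the sides apart there were 0 (1.85% of all genes higher, 1.16% lower). Oas2, an antiviral sensor of double-stranded RNA, was 4.08, 3.71, 2.87, 3.83 and 4.49 in T55, T160, T221, T372 and T2134, and 1.89, -1.17, 3.05, 1.09 and -0.25 in T135, T176, T284, T646 and T2023. T284 alone of the low side lay in the casein-high range, and the difference was 2.87 ± 0.70 (limma adjusted p = 0.19). Oasl1 differed by 1.46 ± 0.36, Ifit1 by 2.07 ± 0.73 and Usp18 by 1.55 ± 0.58, and in each T284 again lay in or above the casein-high range. T920 was higher than every casein-high tumour in Usp18, at 3.71, and in Isg15, at 3.76. Macrophage and lymphocyte markers, 17 and 16 measured, had medians of 0.07 and 0.12 (-0.09 and 0.04 without T176) with 0 at an unadjusted p under 0.05.

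In the involution list Saa1 and Saa2 were higher without overlap (1.85% of all genes), whereas the acute-phase genes Saa3 and Lcn2 overlapped. Saa2, a serum amyloid gene, was 3.55, 1.99, 1.62, 4.30 and 4.49 in T55, T160, T221, T372 and T2134, and 0.37, -0.76, 0.69, -0.44 and -0.38 in T135, T176, T284, T646 and T2023. The difference was 3.29 ± 0.57 (limma adjusted p = 0.082), and Saa1 differed by 2.72 ± 0.54 (adjusted p = 0.14). These genes are near-identical, so their probes may read both. Over all 23 measured involution genes the median was 0.24, or 0.08 without T176, and 0 passed, with 3 at an unadjusted p under 0.05 (10.9% of all genes).

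Proliferation genes had a median difference of 0.73 over 24 measured, or 0.95 without T176, with 21 higher by mean. At an unadjusted p under 0.05, 4 were higher (6.27% of all genes), and 0 passed. Without overlap 1 was higher (1.85% of all genes), or 5 without T176 (2.7%). With each gene centred on its mean over the tumours, the list mean ran from -0.37 to 0.57 on the casein-high side. T176 at 0.37 and T284 at 0.18 lay in that range. T135, T2023 and T646 lay below it, at -0.44, -0.48 and -1.57. Mcm6, a subunit of the replicative helicase, ran from -0.36 to -0.04 on the casein-high side and from -1.77 to -0.60 on the low side, a difference of 0.86 ± 0.21 (limma adjusted p = 0.195). Mki67, the usual marker of cycling cells, differed by 0.96 ± 0.47 with overlap, and T646 held the lowest value at -3.22.

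Smarca4, the heterozygous gene, was -0.60, -0.76, -1.05, -0.29 and -0.49 in T55, T160, T221, T372 and T2134, and -0.24, 0.07, -1.08, -0.48 and -0.87 in T135, T176, T284, T646 and T2023. The sides overlapped and the difference was -0.12 ± 0.24 (limma adjusted p = 0.886), which turned to 0.03 without T176, and the 2 probes had opposite signs at 0.12 and -0.36. Of 23 measured SWI/SNF subunit genes 0 passed, the median was -0.01, and 2 were higher and 2 lower at an unadjusted p under 0.05 (6.27% and 4.6% of all genes). Smarcd2, an accessory subunit, was the member with the sides apart (1.85% of all genes were higher without overlap). It ran from 0.40 to 1.19 against -0.89 to 0.00, a difference of 1.02 ± 0.21 (limma adjusted p = 0.153). Bcl7c, a small accessory subunit, differed by -0.88 ± 0.22 and Smarcc1, a core subunit, by 0.50 ± 0.22 (adjusted p = 0.197 and 0.438).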

How the data were processed

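The deposited series table gives a log2 value per probe and array, read as the log2 ratio of tumour (Cy5) over reference (Cy3), with the direction given by the dyes, per the labels. Base 2 was inferred from the range, -9.19 to 7.42. Array medians lay between 0 and 0.018. How the arrays were scanned, background-corrected, normalized and filtered is not given in the sources used here. Arrays shared 1 dye orientation and correlated between 0.465 and 0.898. Of 22575 probes, 18658 had 1 gene symbol in the platform annotation, 30 several and 3887 none; symbols were updated through RefSeq GRCm38.p6 (18445 by Entrez identifier, 24 by accession, 189 kept). Probes of a gene were averaged, giving 16879 genes with values on at least 12 of 14 arrays. The sides were fitted with limma 3.58.1 in R 4.3.3 (two-sided, prior 2.52 degrees of freedom and SD 0.324), Csn2 left out, with Benjamini-Hochberg adjustment over 16878 genes and a threshold of 0.05; a side was called apart from the other when their values did not overlap. The fit was tested on simulated data.

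The members and the 25 gene lists (533 genes, 494 measured) were chosen with earlier results of these data known. Genes were named by rule: Csn2, Csn1s1, Elf5, Smarca4, in each direction 12 genes that passed or had the smallest p with the sides apart and a difference of at least 1, and up to 4 members of a list by p. Other list members named, and tumour values of genes that did not pass, were chosen after their values were seen. Alternatives were array scaling, probe choice, missing values, single arrays of T284, a robust prior, all 12 tumours, Csn2 as a continuous value, thresholds, and each tumour left out.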

Additional observations from a re-analysis of the deposited data

Results flagged for a closer look

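In 241 groups of 5 tumours (the 2 sides of each gene named by rule), 20 had 1 tumour set apart from the other 4 by more than 0.71 of the range. In independent groups of normal values chance would flag about 1 in 20. These groups share the same tumours and their genes were picked by rule, so that rate is no yardstick for the 20 flags. All values are log2 ratios of tumour over reference, with the range of the other 4 tumours of the side beside them.

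T176, on the casein-low side, stood apart in 4 genes. It had the tight junction and polarity gene Crb3 at -2.71 against 0.30 to 1.10, and the osteoblast factor gene Sp7 at 2.51 against -0.07 to 0.61. It was also high in 2 genes of the endoplasmic reticulum, Kdelr3 at 2.75 (-0.98 to -0.23) and Ssr4 at 0.91 (-0.46 to -0.25).

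T646, also casein-low, stood apart in 3 lymphocyte genes. The B-cell genes Cd79b and Ms4a1 were 1.40 (-2.34 to -1.87) and 1.25 (-0.42 to 0.04), and the T-cell gene Cd8b1 was 0.89 (-2.22 to -1.77). T284 stood apart in Dhrs3 at 1.64 (0.90 to 1.09), in Ccnd1 at 0.23 (1.71 to 2.20) and in Smarcc1 at -1.01 (-0.25 to -0.08). T135 stood apart in Bcl2l15 at 1.59 (-0.61 to -0.19) and in Reck at 1.07 (-0.70 to -0.23), and T2023 in Atf3 at 0.55 (0.14 to 0.21).

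On the casein-high side, T221 had the calcium pump gene Atp2c2 at 2.82 (2.08 to 2.29) and the squamous gene Sprr3 at 2.61 (-1.66 to -0.85). T55 had the muscle creatine kinase gene Ckm at -3.71 (-4.95 to -4.71) and Pfkp at -0.71 (0.32 to 0.56). T2134 had Cald1 at -1.40 (-0.42 to -0.08), T160 had Bcl7c at -0.39 (-0.82 to -0.77) and T372 had Bcl7b at -0.32 (-0.05 to 0.05).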

How the results depend on the processing

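The 3 higher and 1 lower calls were 11 and 2 with all 12 tumours in the fit and 18 and 3 with Csn2 as a continuous value, and the lower call was lost, at 0, with 1 probe per gene, with the first array of T284 and at an adjusted p under 0.01. Leaving out 1 tumour gave 2 to 14 higher calls and 0 to 10 lower calls, with the most higher calls without T2134 (14), T221 (8), T2023 (7), T160 (5) and T135 (5), and 10 lower calls without T2023. In the refits that gave no lower call, Dhrs3 had adjusted p from 0.0517 to 0.159. Leaving out a tumour makes separation easier by construction: genes higher without overlap then numbered 336 to 614 and lower ones 230 to 490, and without T176 the lower ones numbered 309. Over the genes named by rule and all settings, 2353 values kept their direction and side of the threshold, 27 passed newly, 15 no longer passed and 4 turned in sign. These were the differences of Smarca4 (0.03 without T176, where that setting counts under 2 names, and 0.12 with 1 probe per gene) and Egr1 (0.00 without T55). With 1 tumour left out they ran from -0.26 to 0.03 for Smarca4 and from -0.55 to 0.00 for Egr1, and the cause was not tested. No paired analysis was possible because the labels match no tumour of 1 side with a tumour of the other. With 5 tumours a side and a median SE of 0.22, small differences were not detectable, and a gene that did not pass is not shown to be equal between the sides.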
